A study of Homo sapiens with 4 samples.

Results

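The G1 cyclins, the kinases they bind, the transcription factor E2F1 and the phosphatase CDC25A were examined in RNA-Seq of SK-MEL-28, an established human melanoma cell line. The group was 10 genes, CCND1, CCND2, CCND3, CCNE1, CCNE2, CDK2, CDK4, CDK6, E2F1 and CDC25A, taken by symbol from a deposited table of 25268 symbols, and 1 row of the table carried each of them. A pair of derived lines was used, both made with lentivirus: the control carried the pTRIPZ vector with no insert (vector line), and the other carried MYC under the control of a Tet-inducible promoter (MYC line). Each line was sequenced without doxycycline (Dox) and after 54 h with Dox, the drug that turns the Tet-inducible promoter on, and all cells were grown in G418. Whether each line was a clone or a pool of infected cells is not given in the sources used here. There were 4 libraries, 1 per condition, so differences between conditions could not be checked against replicates and carry no p-value.

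Cells leave G1 through successive waves of cyclin-dependent kinase activity. The D-type cyclins (CCND1, CCND2 and CCND3) bind CDK4 and CDK6, and these kinases begin to phosphorylate the retinoblastoma protein RB1. E2F1, which RB1 holds back, then switches on the genes of DNA replication together with the E-type cyclins (CCNE1 and CCNE2), which bind CDK2 and carry the cell into S phase. CDC25A removes inhibitory phosphates from CDK2, and the CDK inhibitors block the kinases. Melanomas often reach this pathway through BRAF and the MAPK cascade, which acts on CCND1, and MYC is known to act on several of its genes, CDC25A, CDK4 and CCND2 among them. Kinase activity and protein levels were not measured here, and RNA of a cell population cannot tell a change in the share of cells in a phase from a change in the RNA of each cell.

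The authors deposited FPKM values, which are fragments per kilobase of transcript, scaled to the mapped fragments of the library, so levels of different genes are compared per length. Depth was approximately 35300000 to 42400000 fragments per library, as read from the values of genes with few fragments. MYC itself was at 58.3 and 54.8 FPKM in the vector line and at 76.5 and 87.1 FPKM in the MYC line, without and with Dox. Its fold with Dox was 1.14 in the MYC line and 0.941 in the vector line. Between the untreated lines it was 1.31, a larger difference than that with Dox. Whether reads of the inserted MYC count towards these values is not given in the sources used here. All 8 melanocyte lineage markers were above the mean of 1 FPKM, and their summed level was 8578, 8467, 8433 and 4666 FPKM in the same order of libraries. Of the markers of other cell types, 1 of 6 fibroblast genes (LUM), 1 of 4 epithelial genes (EPCAM) and 0 of 4 immune genes reached that mean, with summed levels of 26.1 to 31.6, 0.739 to 2.84 and 0.0325 to 0.108 FPKM. COL3A1 and KRT5 were listed at 0 in every library. PMEL made up most of the melanocyte sum, with 6176, 6227, 6178 and 3394 FPKM. Each of the 8 melanocyte markers but DCT was lowest in the MYC line with Dox. DCT had 65.1 FPKM there and 61.9 FPKM in the vector line with Dox. The library with the lower melanocyte sum is the one in which the genes below differed. The part of these markers in the results was not tested.

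The levels spanned a wide range. CDK2 and CDK4 stood highest, with 139 to 221 and 148 to 158 FPKM over the 4 libraries, and their ranges overlapped. CCND1 followed with 92.1 to 130 FPKM, and its range met neither that of CDK4 above nor that of E2F1 below. E2F1 (58.1 to 65.7 FPKM) and CCND3 (52.0 to 58.7 FPKM) overlapped, as did CCNE1 (13.1 to 15.5 FPKM) with CCNE2 (11.1 to 13.4 FPKM) and CCNE2 with CDC25A (7.33 to 12.9 FPKM). CDK6 was the lowest of the 9 genes averaging at least 1 FPKM, at 2.998 to 4.94 FPKM. CCND2 was close to absent and is described with the D-type cyclins.

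**Figure D1:**
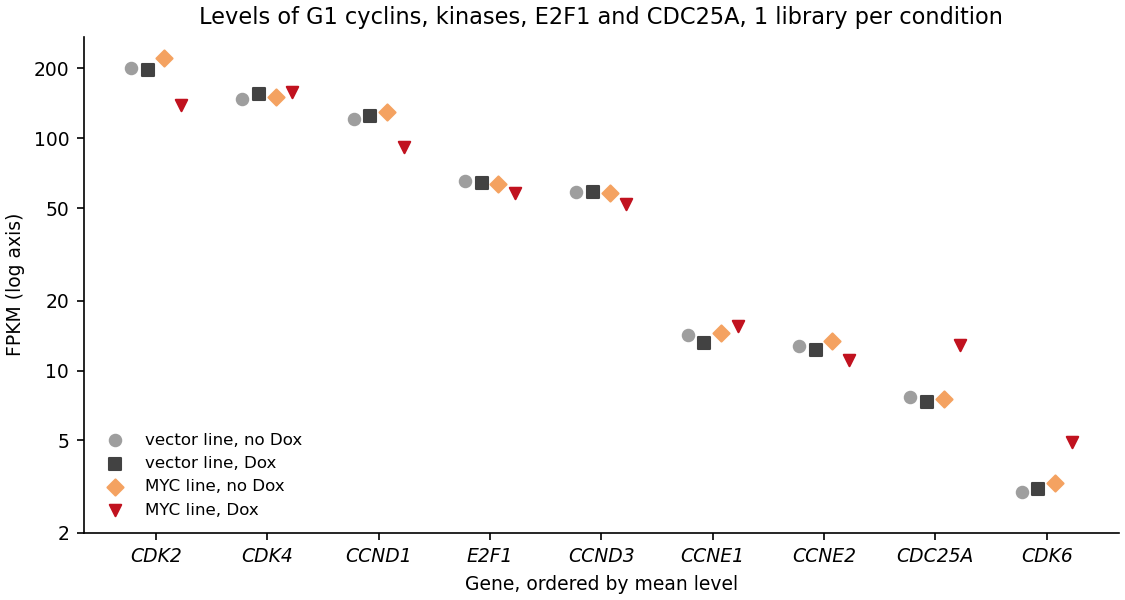
Level of each gene in each of the 4 libraries, in FPKM on a log axis, with genes ordered by their mean and 1 point per library; CCND2, which had at most 0.00740 FPKM, is left out. The MYC line with Dox (red triangles) sits below the other 3 libraries for CDK2 and CCND1 and above them for CDC25A and CDK6.

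Dox in the MYC line moved few of these genes past 1.5-fold. CDC25A rose and CDK2 fell, CDK6 stopped just short of the threshold on the way up, and CCND1 was lower by less than 1.5-fold. Changes were taken on the scale log2(FPKM + 0.1), where low genes appear to change less than they did, and a gene was counted as changed at 1.5-fold or more, a log2 change of 0.585. Of the 9 genes averaging at least 1 FPKM, 1 rose and 1 fell, beside 5.90% and 8.85% of the 11147 genes that reached this mean. At these counts the group did not stand apart from the background. Its median log2 change was -0.13, beside -0.03 over all genes. In the vector line none of the 9 genes passed 1.5-fold in either direction, beside 0.709% of all genes that rose and 0.440% that fell, and the furthest from 0 was CCNE1 at -0.12. The median of the group there was -0.03, beside 0.01 over all genes. The value of the MYC line with Dox lay outside the range of the other 3 libraries in all 9 genes, as it did in 83.1% of the 11147 genes.

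**Figure D2:**
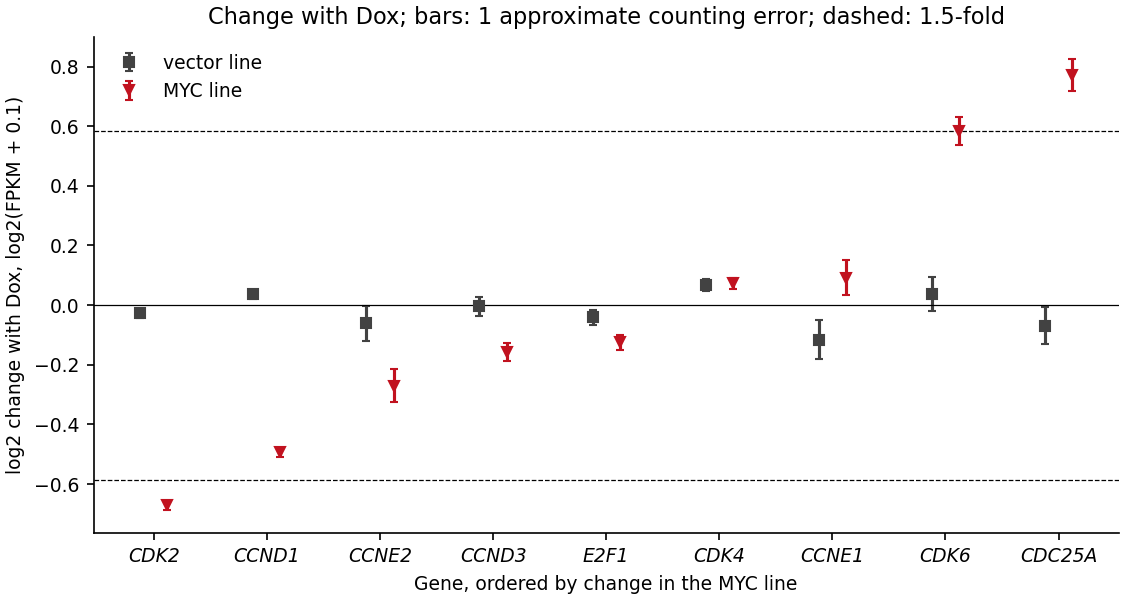
Log2 change with Dox of the 9 genes averaging at least 1 FPKM, in the vector line (dark squares) and the MYC line (red triangles), ordered by the latter. Bars are 1 approximate counting error, which leaves out differences between cultures, and dashed lines mark 1.5-fold; CDC25A and CDK2 lie beyond them and CDK6, at 0.58, lies on the upper line.

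Among the D-type cyclins, CCND1 was the main transcript. It lies on chromosome 11 from 69455924 to 69469242 (GRCh37, as for all genes here), and its level was 122 and 125 FPKM in the vector line and 130 and 92.1 FPKM in the MYC line, without and with Dox. The first 3 libraries lay close together and the MYC line with Dox lay below them all. On the log2 scale the change was -0.49 in the MYC line and 0.04 in the vector line, with approximate counting errors of 0.0150 and 0.0146. Of the 11147 genes, 1329 were lower by at least as much in the MYC line. Annotated exons of LTO1 (listed as ORAOV1) on the other strand overlap 497 of the 4238 bases of the canonical CCND1 transcript, and the canonical LTO1 transcript overlaps 0 of them. LTO1 had 7.15, 7.83, 7.13 and 9.84 FPKM in the same order of libraries, highest where CCND1 was lowest, and its part in the CCND1 values was not tested.

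CCND3, on chromosome 6 from 41902672 to 42018095, had 58.7 and 58.5 FPKM in the vector line and 58.1 and 52.0 FPKM in the MYC line, without and with Dox. Its log2 change was -0.16 in the MYC line and 0.00 in the vector line, with a counting error of 0.0303 for the first. The MYC line with Dox was again the lowest library, by a smaller step than for CCND1. The summed level of the 3 D-type cyclins was 180, 183, 188 and 144 FPKM over the 4 libraries. CCND1 made up 67.4%, 68.0%, 69.1% and 63.9% of it, and CCND3 32.6%, 32.0%, 30.9% and 36.1%. The balance thus stood nearest to CCND3 in the MYC line with Dox, where the ratio of CCND1 to CCND3 was 1.77, beside 2.07 to 2.24 in the other libraries.

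CCND2, on chromosome 12 from 4378937 to 4414519, was listed at 0 in both libraries without Dox, at 0.00414 FPKM in the vector line with Dox and at 0.00740 FPKM in the MYC line with Dox. With the length of its canonical transcript these values correspond to approximately 0.949 and 1.90 fragments. In the libraries without Dox, a count of 0 fragments allows up to 3, or 0.0109 to 0.0117 FPKM at their depth. Both values with Dox lay under these limits, and a count above 0 allows more. No fold is given for CCND2, and no difference of it was detectable at this depth. These limits cover counting error only.

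The E-type cyclins, the partners of CDK2, differed little between libraries. CCNE1, on chromosome 19 from 30302898 to 30315219, had 14.2 and 13.1 FPKM in the vector line and 14.5 and 15.5 FPKM in the MYC line, without and with Dox. CCNE2, on chromosome 8 from 95891998 to 95908906, had 12.7 and 12.2 FPKM and then 13.4 and 11.1 FPKM. The MYC line with Dox thus had the highest CCNE1 and the lowest CCNE2. The log2 change in the MYC line was 0.09 for CCNE1 and -0.27 for CCNE2, with counting errors of 0.0589 and 0.0560, and in the vector line it was -0.12 and -0.06. For CCNE1 the values of either line lay within 2 counting errors of 0. The summed level of the pair was 27.0, 25.3, 28.0 and 26.6 FPKM, and CCNE1 made up 52.8%, 51.8%, 52.0% and 58.3% of it. Exons of INTS8 on the other strand cover 56.9% of the canonical CCNE2 transcript, and INTS8 had 4.88, 5.26, 5.35 and 6.19 FPKM, in the direction opposite to CCNE2 in the MYC line. GENCODE also holds 4 processed pseudogenes named after CDK4, CCND2 and CCND3, and none of these symbols is in the table, so the levels of these 3 genes are uncertain as far as reads were shared with the copies. It is not given in the sources used here whether the libraries kept the strand of the RNA, and without it reads of overlapping genes cannot be told apart.

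CDK4 and CDK6, the kinases of the D-type cyclins, stood far apart in level. CDK4, on chromosome 12 from 58141510 to 58149796, had 148 and 155 FPKM in the vector line and 150 and 158 FPKM in the MYC line, without and with Dox. The 4 libraries lay within a narrow range, and the library with Dox was the higher in each line. Its log2 change was 0.07 in both lines, with counting errors of 0.0188 (MYC) and 0.0199 (vector), and the change of the first line minus that of the second was 0.01. Exons of TSPAN31 on the other strand overlap 57.8% of the canonical CDK4 transcript, and TSPAN31 had 6.87, 6.02, 6.90 and 3.52 FPKM.

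CDK6, on chromosome 7 from 92234235 to 92465887, had 2.998 and 3.08 FPKM in the vector line and 3.27 and 4.94 FPKM in the MYC line. The first 3 values lay close together and the MYC line with Dox lay above them. The MYC line changed by 0.58 ± 0.0469 (counting error) on the log2 scale, beside 0.04 for the vector line. This fold of 1.499 fell just under the threshold of 1.5, and with a pseudocount of 0.01, with median-ratio or with upper-quartile scaling CDK6 passed it. CDK4 made up 98.0%, 98.1%, 97.9% and 97.0% of the summed CDK4 and CDK6 level, so CDK6 stayed a small share of it, from 1.95% to 3.03%. The ratio of CDK4 to CDK6 was 49.4, 50.4, 46.1 and 31.99 over the 4 libraries.

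CDK2, the kinase of the E-type cyclins, fell in the MYC line with Dox. It lies on chromosome 12 from 56360565 to 56366573 and its level was 200.1 and 196 FPKM in the vector line and 221 and 139 FPKM in the MYC line, without and with Dox. The untreated MYC line was the highest library and the same line with Dox the lowest. The log2 change was -0.67, a fold of 0.628, with a counting error of 0.0164, and 733 of the 11147 genes were lower by at least as much. In the vector line it was -0.03. Compared with Dox-treated vector cells, its log2 value was -0.50 and no longer passed 1.5-fold. Among the 3 kinases CDK2 held 57.0%, 55.4%, 59.0% and 45.9% of the summed level, and CDK4 held the larger share, 52.4%, in the MYC line with Dox only.

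CDK2 has a neighbour of the melanocyte lineage. PMEL, a structural protein of pigment granules, starts beside CDK2 and is transcribed away from it. Only a single annotated PMEL transcript, not the canonical, reaches across CDK2 on the other strand. MITF, the lineage factor of melanocytes, is known to act on PMEL and on CDK2 in melanoma cells. PMEL had 6176, 6227, 6178 and 3394 FPKM over the 4 libraries, with a log2 change of -0.86 in the MYC line and 0.01 in the vector line. MITF had 82.6, 85.6, 90.0 and 67.2 FPKM, with log2 changes of -0.42 and 0.05. CDK2, PMEL and MITF were thus all lowest in the MYC line with Dox. In the other 3 libraries PMEL was near level, while CDK2 and MITF were highest in the untreated MYC line. Exons of any PMEL transcript overlap 89 of the 2240 bases of the canonical CDK2 transcript, and the canonical PMEL transcript overlaps 0 of them. A long noncoding RNA on the other strand, which has an annotation identifier but no symbol and is not in the table, overlaps 287 of these bases. The CDK2 value was 3.24%, 3.15%, 3.57% and 4.08% of the PMEL value, so the pair did not move in strict proportion. The part of PMEL reads or of the lower melanocyte genes in the CDK2 result was not tested.

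**Figure D3:**
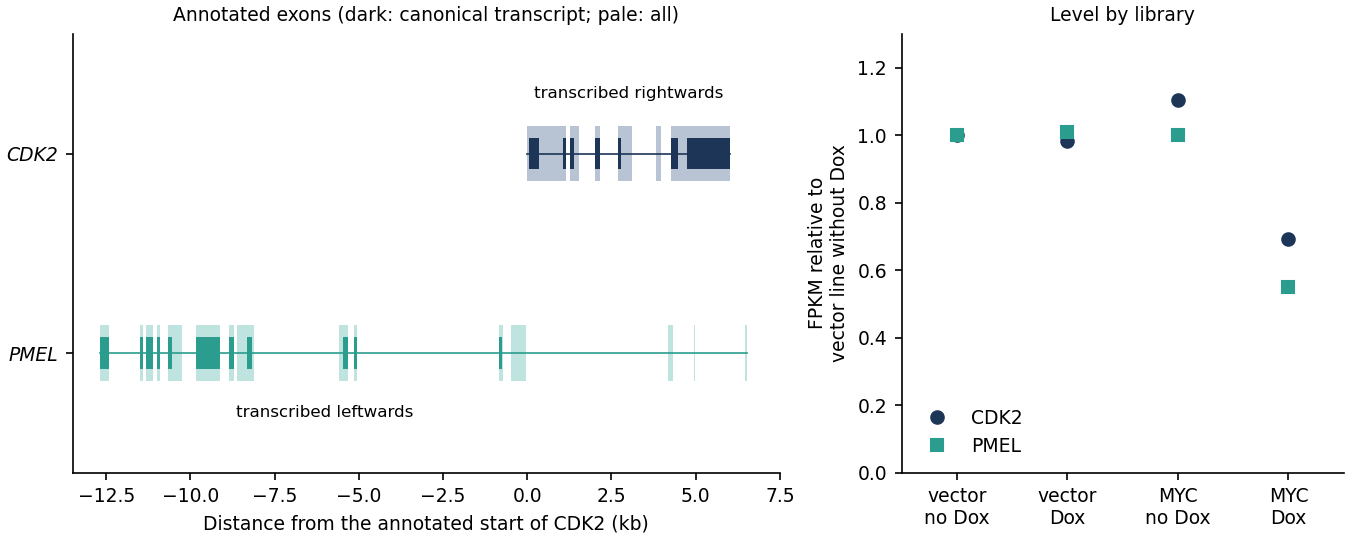
Left, annotated exons of CDK2 and PMEL on GRCh37 by distance in kb from the annotated start of CDK2, with canonical transcripts dark and all other transcripts pale. Right, FPKM of CDK2 and PMEL in the 4 libraries relative to the vector line without Dox; in the MYC line with Dox both lie below the other libraries, at 139 FPKM for CDK2 and 3394 FPKM for PMEL.

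CDC25A, the phosphatase that activates CDK2, rose furthest of the group. It lies on chromosome 3 from 48198636 to 48229907 and its level was 7.69 and 7.33 FPKM in the vector line and 7.53 and 12.9 FPKM in the MYC line, without and with Dox. The MYC line with Dox stood alone above 3 nearly level libraries. The log2 change was 0.77, a fold of 1.71, with a counting error of 0.0525, and 288 of the 11147 genes rose at least as far. The corresponding change in vector cells was -0.07 ± 0.0623 (counting error). No exon of another annotated gene overlaps its canonical transcript.

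E2F1, the factor released from RB1, did not pass the threshold. E2F1, on chromosome 20 from 32263283 to 32274191, had 65.7 and 63.9 FPKM in the vector line and 63.3 and 58.1 FPKM in the MYC line, without and with Dox. The MYC line with Dox was the lowest library, and in each line the library with Dox was the lower. Its log2 change was -0.13 in the MYC line and -0.04 in the vector line, with counting errors of 0.0250 and 0.0253.

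Promoter windows of 6 of the 10 genes were in the RefSeq promoter table used here, which spans 250 bases before to 50 after each annotated start in 9 windows for these genes. CCND1, CCND2, CCNE2 and CDK2 had no entry. The windows were searched on both strands for the E-box CACGTG, which MYC and its partner MAX bind, for the E2F motifs TTTGGCGC and TTTCGCGC, for the cAMP element TGACGTCA and for the GC box GGGCGG. The 4 windows printed here are those that hold an E-box or an E2F motif, and capitals mark these motifs. Each sequence was taken from RefSeq (table on GRCh38.p14) and placed on GRCh37 by an exact match, which was unique, and all 4 lie on the minus strand.
CDC25A, chr3:48229858-48230157: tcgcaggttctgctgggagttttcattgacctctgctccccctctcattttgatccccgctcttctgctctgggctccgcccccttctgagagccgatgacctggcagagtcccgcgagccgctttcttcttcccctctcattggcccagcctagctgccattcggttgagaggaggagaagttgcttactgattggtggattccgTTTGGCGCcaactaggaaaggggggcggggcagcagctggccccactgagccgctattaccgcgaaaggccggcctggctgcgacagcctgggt
CDK6, chr7:92465838-92466137: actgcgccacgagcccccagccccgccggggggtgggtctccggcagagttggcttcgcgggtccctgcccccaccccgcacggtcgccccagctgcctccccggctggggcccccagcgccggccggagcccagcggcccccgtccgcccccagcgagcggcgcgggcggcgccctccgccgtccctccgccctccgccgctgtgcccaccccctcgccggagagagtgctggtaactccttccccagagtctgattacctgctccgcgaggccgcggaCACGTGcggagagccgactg
CDK4, chr12:58146044-58146343: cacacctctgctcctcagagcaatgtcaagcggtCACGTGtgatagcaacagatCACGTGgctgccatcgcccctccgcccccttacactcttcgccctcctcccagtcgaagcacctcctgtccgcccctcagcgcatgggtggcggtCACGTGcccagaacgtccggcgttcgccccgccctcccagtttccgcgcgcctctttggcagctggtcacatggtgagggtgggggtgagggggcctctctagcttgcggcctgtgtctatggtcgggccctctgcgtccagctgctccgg
E2F1, chr20:32274142-32274441: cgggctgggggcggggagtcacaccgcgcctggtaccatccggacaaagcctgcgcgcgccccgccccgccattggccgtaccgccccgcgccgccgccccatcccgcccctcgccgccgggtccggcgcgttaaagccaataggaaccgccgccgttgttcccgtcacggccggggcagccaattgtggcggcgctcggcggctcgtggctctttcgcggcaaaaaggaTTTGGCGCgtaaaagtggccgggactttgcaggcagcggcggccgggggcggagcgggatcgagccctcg

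The window of CDK4 holds 3 E-boxes, which begin at -216, -196 and -101 from the start, and that of CDK6 holds 1 at 31. At least 1 E-box was present in 7.26% of all 35116 windows in the table, and 3 or more in 0.0940%. The log2 change in the MYC line was 0.07 for CDK4 and 0.58 for CDK6. For the genes whose windows hold no E-box it was 0.77 (CDC25A), 0.09 (CCNE1), -0.13 (E2F1) and -0.16 (CCND3). A link between the motifs and the changes was not tested. The windows of CDC25A and E2F1 each hold 1 match to the E2F motifs searched, at -44 and -20. At least 1 such match was present in 1.15% of all windows. E2F sites with other letters were not searched. The cAMP element, present in 1.85% of all windows, was in none of the 9, and the GC box was in 7 of the 9 and in 45.0% of all windows. Of these windows, that of CCNE1 holds 7 GC boxes and no E-box or E2F motif. A match is a description of the letters, and sites outside these windows were not searched.

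The change of the MYC line minus that of the vector line passed the threshold in the same genes. It was 0.84 for CDC25A, 0.55 for CDK6, -0.53 for CCND1 and -0.64 for CDK2, and between -0.21 and 0.21 for the other 5 genes. CDC25A passed 1.5-fold upwards and CDK2 downwards, beside 5.85% and 9.72% of all genes. None of the 9 differed by 1.5-fold between the untreated libraries, beside 0.592% of all genes that were higher in the MYC line and 0.287% that were lower. The largest differences there were those of CDK2, at a log2 value of 0.14, and CDK6, at 0.12. This comparison shares the untreated libraries with the Dox comparisons.

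**Figure D4:**
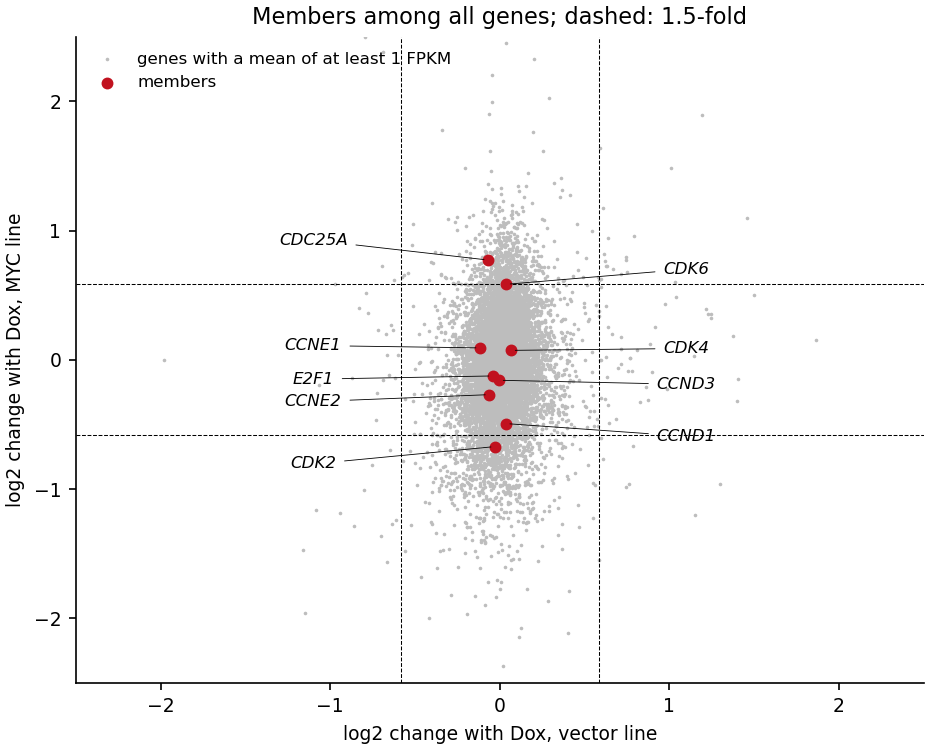
Log2 change with Dox in the MYC line against that in the vector line for genes averaging at least 1 FPKM (grey, 11097 shown and 50 outside the axes) and the 9 genes described here (red). Dashed lines mark 1.5-fold; CDC25A lies above the upper line, CDK2 below the lower line, and all 9 lie within the vertical lines of the vector line.

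The other genes of the pathway were given as lists beside the group. The CDK inhibitors, which bind and block the G1 kinases, were the list with the most genes past the threshold, where 5 of 7 fell in the MYC line and none rose, beside 8.85% and 5.90% of all genes. Their median log2 change was -1.16, beside -0.03 over all genes, and -0.04 in the vector line. CDKN1A (p21) went from 13.7 to 3.03 FPKM, with a log2 change of -2.15, and stood at 12.5 and 13.5 FPKM in the vector line. CDKN2C and CDKN2D, inhibitors of CDK4 and CDK6, had log2 changes of -1.25 and -1.16, and CDKN1C and CDKN2B had -1.39 and -0.80. CDKN1B (p27) at -0.18 and CDKN2A at 0.13 did not pass, and they had -0.04 and 0.24 in the vector line. CDKN1C rests on low levels, with 2.38 FPKM without Dox and 0.842 with Dox.

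Of the 11 measured pocket proteins, E2F proteins and DP partners, 1 fell and none rose in the MYC line, a count near the 8.85% and 5.90% of all genes. RB1, the brake on E2F1, fell from 6.94 to 4.13 FPKM, a log2 change of -0.73, and had -0.10 in the vector line. Compared with Dox-treated vector cells it was at -0.52 and did not pass. TFDP1, the partner with which E2F1 binds DNA, went from 38.6 to 55.0 FPKM (0.51), E2F4, which acts mainly as a repressor, had 0.40 and E2F7, another repressor, had -0.52, all short of the threshold. In the change of the MYC line minus that of the vector line, TFDP1 (0.67) and E2F7 (-0.65) passed it. This list had 1 gene up and 2 down there, beside 5.85% and 9.72% of all genes. TFDP1 also passed against Dox-treated vector cells, at 0.70. E2F5 had 0.424 to 1.02 FPKM and was left out by the filter. The median of the list was -0.09 in the MYC line and -0.06 in the vector line, and it was 0.13 in the former with a filter at 5 FPKM and 0.047 against the vector line with Dox.

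The 22 E2F target genes of S phase had a median log2 change of 0.07 in the MYC line, beside -0.03 over all genes. None of them passed 1.5-fold, beside 5.90% of all genes that rose and 8.85% that fell. These targets ranged from -0.34 for TK1, an enzyme of nucleotide synthesis, to 0.31 for MYBL2 and 0.33 for CCNA2, the cyclin of S phase. None of the 12 genes of G2 and mitosis passed either, beside the same shares of all genes, and their median was 0.11. CDC20 and PLK1 had 0.52 and 0.48, with 0.35 and 0.16 in the vector line, while TOP2A and MKI67, a marker of cycling cells, had -0.23 and -0.18.

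Of the 10 genes for ubiquitin turnover of G1 cyclins and CDC25A, 1 rose, beside 5.90% of all genes. SKP2, which marks p27 and cyclin E for destruction, went from 7.99 to 12.2 FPKM, with a log2 change of 0.60, and CUL1, the scaffold of the same ligase, had 0.45. RBX1 and SKP1 had -0.06 and -0.05. With a pseudocount of 1 or after rescaling to the same sum, none of this list passed in the MYC line. In the change of the MYC line minus that of the vector line, 2 of the list rose past the threshold, beside 5.85% of all genes. SKP2 was at 0.66 there and the highest gene at 0.71. In the MYC line none of the 10 genes for CDK phosphorylation and assembly passed, beside 5.90% of all genes that rose and 8.85% that fell. Their median was 0.04. They ranged from -0.13 for CKS2 and -0.12 for WEE1 to 0.23 for MNAT1 and 0.30 for CDK7. MNAT1 and CDK7 had 0.20 and -0.03 in the vector line. Of 20 other measured cyclins and CDKs, 2 fell, CCNG2 at -1.11 and CDK19 at -0.64, and none rose. This count was near the 8.85% and 5.90% of all genes, and CCNG1 at 0.47 and CDK8 at 0.42 were the highest. CCNG1 and CDK8 had 0.24 and -0.07 in the vector line. CDK19 was at -0.43 against Dox-treated vector cells and at -0.51 in the MYC line minus the vector line, short of the threshold in both. The median of these cyclins and CDKs was -0.06. In the vector line no gene of any of the 7 lists passed 1.5-fold, beside 0.709% of all genes that rose and 0.440% that fell.

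**Figure D5:**
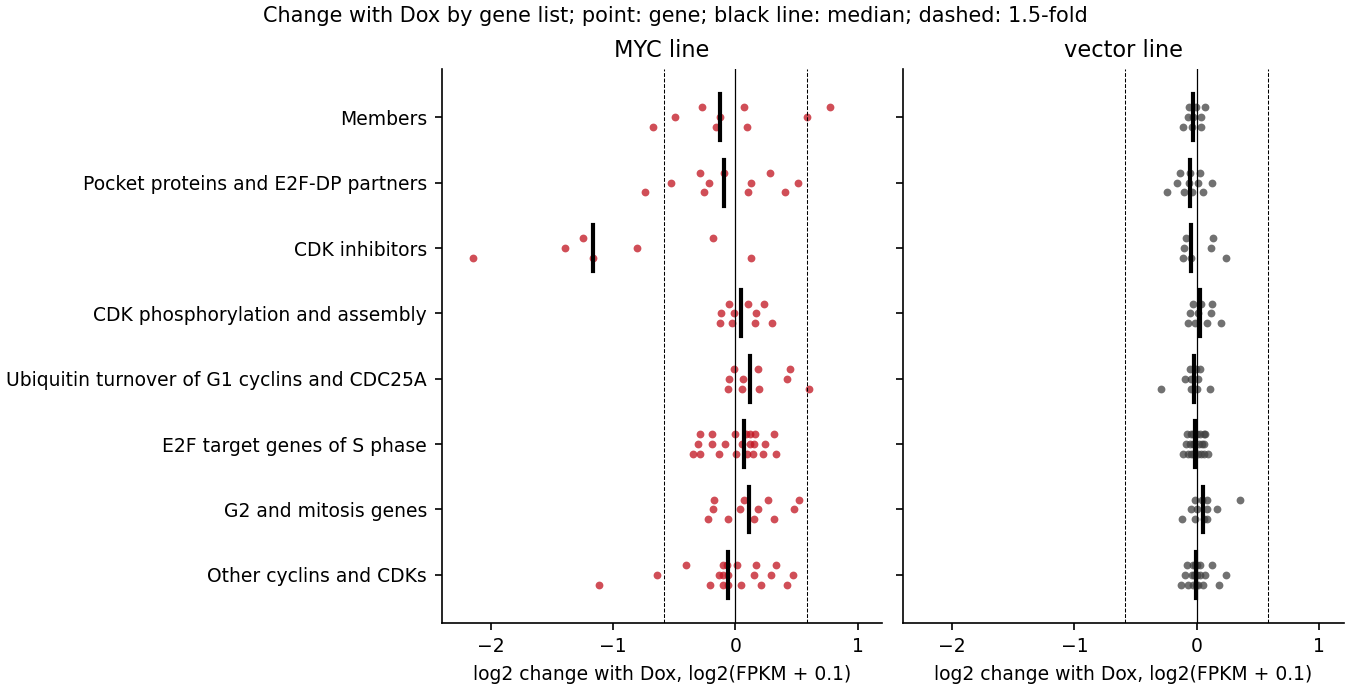
Log2 change with Dox of each measured gene of the group (top row) and of 7 lists of its pathway, in the MYC line (left) and the vector line (right); each point is a gene, the black line is the median and dashed lines mark 1.5-fold. The CDK inhibitors lie furthest to the left, with a median of -1.16 in the MYC line and -0.04 in the vector line.

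The genes with the most similar pattern were sought for the 3 genes with the largest difference between the lines, as the smallest Euclidean distance between log2 profiles over the 4 libraries, each centred on its mean, among 7466 other genes averaging at least 5 FPKM. For CDC25A they were PNPT1, UNG and GAR1, at distances of 0.0321, 0.0451 and 0.0475. PNPT1 had 10.5, 10.1, 10.3 and 17.3 FPKM. For CDK2 they were MAP3K12, SDC3 and BBS4, at 0.0216, 0.0292 and 0.0380. For CDK6 they were MTA1, U2SURP and PSMG1, at 0.0201, 0.0286 and 0.0332. With 4 libraries such profiles rest mostly on the library of the MYC line with Dox.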

How the data were processed

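RNA-Seq of 4 SK-MEL-28 libraries, 1 per condition, was analysed. FPKM values of each gene symbol are what the authors deposited, and the submitters' processing notes name TopHat2 2.0.14, Cufflinks, hg19 and GRCh37, while the annotation and the strandedness are not given in the sources used here. Of 27032 rows, 1 gave no gene and was not used, and rows of the 609 symbols with several rows were summed. FPKM values are not counts and no condition had a replicate, so no test was made and a change was calculated by subtracting log2(FPKM + 0.1) of 1 library from that of another. Results cover 11147 genes averaging at least 1 FPKM, of which 9 of the 10 genes were part. A gene changed at 1.5-fold or more.

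Relative depth was the commonest ratio between libraries among genes under 0.05 FPKM. For 111 genes with only 1 annotated transcript, of 1500 bases or more, whose values were whole multiples of a step within 1.2%, step and length gave approximately 39400000 fragments for the vector line without Dox (quartiles 37300000 and 40900000). Counting errors follow from this depth and the canonical transcript length and leave out differences between cultures. Positions, lengths and overlaps came from GENCODE release 44 on GRCh37, the build of the processing notes, and promoters from RefSeq. Protein sequences were not analysed here.

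The genes and lists were chosen with earlier results of these data known. Named from each list were the 2 genes that rose most and the 2 that fell most in the MYC line, and all CDK inhibitors, except that 1 gene this rule names is not reported here. INTS8, LTO1, TSPAN31, PMEL and MITF were added after their values were seen, for their overlap with the group or, for MITF, beside PMEL. DCT, LUM, EPCAM, COL3A1 and KRT5 were likewise added to describe the marker lists. Recalculations used pseudocounts of 1 and 0.01, left out the filter or set it at 5 FPKM, rescaled libraries to 1 sum, and used median-ratio and upper-quartile scaling, a 2-fold threshold, the largest row of a symbol, the vector line with Dox as reference and the mean of a list. The fold rule was tested on simulated data with counting error only, which leave out differences between cultures. The software was matplotlib 3.10.9, pandas 2.3.3, numpy 2.4.6 and Python 3.11.15.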

Additional observations from a re-analysis of the deposited data

Results flagged for a closer look

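With Dox, 3 of the 9 genes moved one way in the MYC line and the other way in the vector line. The change of the MYC line minus that of the vector line was 0.84 for CDC25A, -0.53 for CCND1 and 0.21 for CCNE1 on the log2 scale. The vector line changes were -0.07, 0.04 and -0.12, of which those of CDC25A and CCNE1 lay within 2 counting errors of 0. With 1 library per condition no test of the lines against each other was made.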

How the results depend on the processing

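No paired analysis was possible because no condition was sequenced more than once. Of 522 recalculated summary values, 495 stayed within 0.107 on the log2 scale, which is the spread of the vector line's change over all genes, within 1 percentage point for shares or within 1.5 times for counts, and 27 did not. Of 293 recalculated values of single genes of the group, 290 stayed within that spread. The others, all against the vector line with Dox, were CCNE1 at 0.24, CCNE2 at -0.13 and CDK2 at -0.50. Part of this count was fixed in advance. The filters and the largest row of a symbol could not change the value of a gene of the group, as each has 1 row. Nor could pseudocounts, filters or scaling change the shares.

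The number of genes of the group that rose in the MYC line was 2 with a pseudocount of 0.01, with median-ratio scaling, with upper-quartile scaling and against the vector line with Dox, because CDK6 then passed 1.5-fold. It was also 2 for the difference between the lines with upper-quartile scaling. At 2-fold 0 rose and 0 fell, in the MYC line and in the difference between the lines, and against the vector line with Dox 0 fell. CDC25A lay between 0.71 and 0.81 and CDK2 between -0.72 and -0.50 under the alternatives.

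The median of the CDK inhibitors was -0.87 with a pseudocount of 1, -0.98 against the vector line with Dox and -0.97 as a mean, and 3 fell with a filter at 5 FPKM, which leaves fewer genes. For the pocket proteins, E2F proteins and DP partners the median was 0.13 with that filter and 0.047 against the vector line with Dox, 1 rose without a filter and 1 against the vector line with Dox, and 0 fell at 2-fold and 0 against that reference. For ubiquitin turnover 0 rose with a pseudocount of 1, after rescaling to the same sum and at 2-fold. Of the other cyclins and CDKs 1 fell with a pseudocount of 1, at 2-fold and against the vector line with Dox, and 0 with a filter at 5 FPKM. Where no construction of the alternative is named, the cause was not tested.

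Over all genes, 1138 rose and 1748 fell in the MYC line without a filter, 436 and 549 with a filter at 5 FPKM and 117 and 228 at 2-fold. Without a filter, 529 rose and 387 fell with Dox in the vector line. Depth limits CCND2 most, with at most approximately 1.90 fragments.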
